A study of Homo sapiens with 47 samples.

Results

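The collagen genes were taken as every gene whose symbol is COL followed by digits, A and digits, once Ensembl gene identifiers had been matched to symbols. Of the 58051 genes listed for each library, 44 met this rule, and all 44 had a value in all 47 libraries. The rule used no measured value. RNA was sequenced from WA09 (H9) cells, an established human ES cell line, of no engineered genotype in the labels. The undifferentiated cells (t0) were grown on Matrigel in mTESR1. The 36h cells are described as NMP-like, that is, like neuromesodermal progenitors, and had received CHIR-99021 (a WNT pathway agonist), FGF2, AGN193109 (an inverse agonist of retinoic acid receptors) and Y-27632 (a ROCK inhibitor) in N2B27 medium without vitamin A. The same 4 additives were kept for passages P1 to P10, in which pre-neural progenitors (PNPs) and neural crest (NC) cells grow together. There were 3 independent differentiations, called r1, r2 and r3, and P9 was sampled in r1 and r2 only, which gave 35 whole-culture libraries. At P5 and P8 an epithelial (EPI, enriched for PNPs) and a mesenchymal (MES, enriched for NC cells) fraction were also detached from each culture with TrypLE, which gave 12 more. The fractions are enriched and not pure, and every library came from a single cell line.

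Collagens are extracellular proteins of 3 intertwined chains, and each gene encodes 1 chain. Fibrillar collagens (such as COL1A1, COL1A2, COL3A1, COL2A1 and the type V and XI chains) form the fibrils of connective tissue and cartilage. Type IV chains form the sheet-like network of basement membranes under epithelia, and type VI chains form beaded filaments close to cells. FACITs (COL9A1 to COL9A3, COL12A1, COL14A1, COL16A1 and others) sit on the surface of fibrils, transmembrane collagens stay in the plasma membrane, and the multiplexins COL15A1 and COL18A1 associate with basement membranes. In the embryo, epithelia such as the neural plate rest on a basement membrane, and migrating mesenchymal cells such as the neural crest move through and deposit fibrillar and filament collagens.

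The 6 type IV genes lie in 3 head-to-head pairs, each pair with a shared stretch of DNA between the starts of the genes, so that the levels of the partners can be read beside the sequence that lies between them. The sequences come from RefSeq on GRCh38.p14, plus strand, 5′ to 3′, and show the part between the RefSeq starts in which the promoter windows (250 bases before to 50 bases after a start) of both partners overlap. Capitals mark a match to a GC box (GGGCGG or CCGCCC) or to a CCAAT box (CCAAT or ATTGG). The TATA box letters TATAAA or TTTATA were searched too and had no match in these 3 stretches.
COL4A1 and COL4A2, chr13:110307158-110307283: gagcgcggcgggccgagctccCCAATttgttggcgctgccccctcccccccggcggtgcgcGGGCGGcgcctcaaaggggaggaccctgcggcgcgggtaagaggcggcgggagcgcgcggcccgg
COL4A3 and COL4A4, chr2:227164374-227164455: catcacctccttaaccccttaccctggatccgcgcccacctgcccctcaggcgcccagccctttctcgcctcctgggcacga
COL4A5 and COL4A6, chrX:108439588-108439708: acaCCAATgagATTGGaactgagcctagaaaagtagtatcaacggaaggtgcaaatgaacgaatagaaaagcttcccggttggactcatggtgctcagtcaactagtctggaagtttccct
The starts are 127 bases apart for COL4A1 and COL4A2, 419 for COL4A3 and COL4A4 and 380 for COL4A5 and the start of COL4A6 that lies nearer to it. The stretch of COL4A1 and COL4A2 held 80.2% G and C, that of COL4A3 and COL4A4 67.1% and that of COL4A5 and COL4A6 44.6%. Of all 35116 promoter windows of 300 bases, 45% held a GC box, 34.6% a CCAAT box and 11.5% a TATA box on either strand. Windows were given for 32 of the 44 collagen genes, of which 21 held a GC box, 12 a CCAAT box and 7 a TATA box in at least 1 window. These are counts of genes, which can have several windows, and cannot be set against the shares of windows. A match is a description of letters and shows no binding.

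Depth, as total expected counts, ran from 13029491 (P6 r3) to 64082859 with a median of 47292229 over the libraries. The pluripotency markers followed the labels of the cells: 4 genes summed to between 2992 and 3361 TPM (RSEM's level per transcript length, scaled to the same total in each library) at t0 and to at most 10.1 at P8. Markers of neural crest (8 genes) and of pre-neural epithelium (5 genes) separated the fractions of each culture in all 6 pairs, at P5 with 440.9 to 606.3 against 67.97 to 263.1 TPM for the crest genes. At P8 r2 the fractions were closer, with 409.3 TPM of crest markers in MES and 337.4 in EPI. Not every list was particular to the cells it names. The pre-neural markers summed to 532.5 to 621 TPM in the undifferentiated t0 cells and to 308.1 to 580.4 at P5. At t0 the cartilage markers summed to 116.9 to 136.4 TPM and the endothelial markers to 49.33 to 56.47 TPM. Several libraries stood apart from others with the same label. P1 r1 still had 1219 TPM of pluripotency markers, against 103 in r2 and 99.49 in r3. P10 r1 had 427.1 TPM of pre-neural epithelium markers, against 7.35 and 5.24 in P10 r2 and r3 and 16.51 and 16.73 in the P9 libraries. Results that rest on P10 r1 are given with and without it. In bulk RNA, fewer cells of a type and less RNA per cell cannot be told apart.

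The mean of the summed collagen level was lowest at t0 and highest at P9 and P10, although the differentiations differed widely, some passages were below the one before, and no difference between the times compared passed its test. Their summed level was 744.1 ± 34.92 TPM at t0 (SD, n = 3) and 859.2 ± 168.5 at 36h (n = 3). It was 1952 ± 467.8 at P5 (n = 3), 2462 ± 936.7 at P8 (n = 3), 4231 at P9 (n = 2, 3092 and 5370) and 4560 ± 3352 at P10 (n = 3). The P10 libraries held 1789, 3604 and 8286 TPM in r1, r2 and r3, so that r1 was below every library of P8 and P9. The P5 cultures did not overlap those of 36h, with 2.27 times the mean. An exact two-sided permutation test gave p = 0.1 for that difference, the smallest that 3 against 3 samples allow (adjusted p = 0.2 over 6 such comparisons). P8 overlapped P5 (p = 0.6 by the same exact test), and P9 and P10 overlapped P8 (exact p = 0.3, where 0.018 is the smallest possible). That test took the 5 late libraries as independent, although they come from 3 differentiations. Without P10 r1 the late mean was 2.07 times that of P8 and still overlapped it (exact p = 0.14, smallest possible 0.029). Within these, P9 and P10 were at 3092 and 1789 TPM against 1833 at P8 in r1 and at 5370 and 3604 against 2015 in r2. In r3, P10 was at 8286 against 3539, so that P10 r1 was the only late library below the P8 library of its differentiation.

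**Figure D1:**
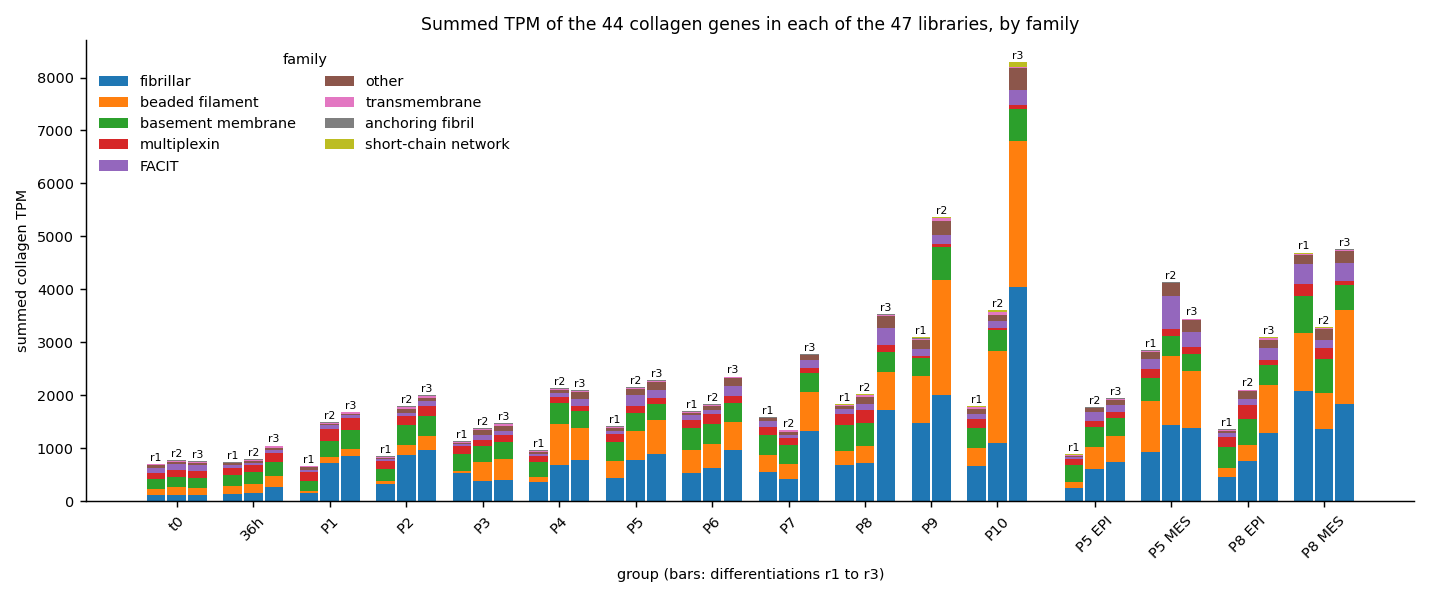
Stacked bars give the summed TPM of the 44 collagen genes in each library, coloured by collagen family, for the time course at the left and the EPI and MES fractions at the right. Totals lie between 704.9 and 772 TPM at t0 and reach 8286 TPM in P10 r3, where fibrillar and beaded-filament genes take most of the bar.

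The make-up of the collagen signal shifted between families. Basement membrane chains held 24.4% of the collagen TPM at t0, type VI beaded-filament chains 17.7%, fibrillar chains 16% and the multiplexins 17.6%. The fibrillar share of the mean was already 45.3% at P1, with 35.8% at P5 and 42.3% at P8. In P1 r1 the fibrillar chains held 158.8 of 663.1 TPM, against 721.8 of 1487 in r2 and 856.1 of 1687 in r3. The type VI share of the mean was 7.27%, 25.6% and 17.8% at P1, P5 and P8, and 36.1% at P9. At P10 the fibrillar chains held 42.6%, the type VI beaded-filament chains 35.2%, the basement membrane chains 10.1% and the multiplexins 2.08% of the mean. By library, in r1, r2 and r3, the P10 shares were 37.4%, 30.6% and 48.9% for fibrillar chains and 18.9%, 48% and 33.2% for type VI chains. The basement membrane chains held 21%, 11.1% and 7.36% and the multiplexins 9.43%, 1.24% and 0.851%. P10 r1 thus had the lowest type VI share and the highest basement membrane and multiplexin shares, and in r2 type VI exceeded the fibrillar chains. The basement membrane chains did not lose level in sum from t0 to P10, with 181.7 ± 1.591 TPM at t0 and 461.8 ± 129.2 at P10. This does not hold for every chain, since COL4A6 was lower in P10 r2 and r3 than in any t0 library. The leading gene changed as well. COL18A1, whose C-terminal fragment is endostatin, had the highest mean TPM of all members at t0, 36h and P1, COL1A2 at P2, COL6A3 at P3 to P6, COL3A1 at P7 and P8, and COL6A2 at P9 and P10. These are ranks of means, and in r1 COL6A3 was below COL18A1 at P3 and P4. In single late libraries COL6A2 led in r2 at both passages, COL3A1 in P9 r1 and P10 r3, and COL2A1 in P10 r1. At t0, 1 member had a mean of 100 TPM or more, against 10 at P5 and 12 at P10. The number at 1 TPM or more was 30 at t0 and 35 at P10. Of the 44 members, 23 had their highest mean among whole cultures at P9 or P10, namely 11 at P9 and 12 at P10. At t0, 6 members were highest, among them the FACITs COL9A1 (21.9 TPM) and COL14A1 (16.6 TPM).

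Changes are given as log2 fold changes of normalized counts, fitted in edgeR by quasi-likelihood with a block for the 3 differentiations. Calling a gene took an adjusted p below 1%, a difference of 2-fold or more and 100 or more normalized counts on average in the compared libraries. In the whole cultures, 43 of the 44 members passed the filter on low counts. COL4A3, the chain found in kidney and lung basement membrane, did not pass, and it had 3 counts or fewer in 44 of 47 libraries and at most 7 in any.

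The first comparison sets the 36h cells against the t0 hESCs. Time, medium and additives differed at once and cannot be told apart. Few collagen genes were called: 1 higher and 1 lower, against 1.33% and 1.37% of all 21764 genes tested. COL13A1, a transmembrane collagen of cell contacts (chr10:69801867-69964275), rose. It was at 3.62, 3.41 and 3.1 TPM in r1, r2 and r3 at t0 and at 5.04, 16.61 and 36.1 TPM at 36h. The 36h values are spread over a wide range and all lie above those of t0. The log2 fold change was 2.51 (SE 0.63, adjusted p = 0.0098, higher in 3 of 3 differentiations). COL11A2, a fibrillar chain of cartilage (chr6:33162681-33192499), fell from 1.46, 1.77 and 1.91 TPM to 0.28, 0.5 and 0.22 TPM. Its groups did not overlap, and it dropped by 2.28 on the log2 scale (SE 0.53, adjusted p = 0.0054). With no replicate block the log2 fold change of COL11A2 was -2.38 with an adjusted p of 0.045 in edgeR, and it was not called. The cartilage markers were at 116.9 to 136.4 TPM in sum at t0 and 33.02 to 56.96 at 36h, and their part was not tested. Of the 5 cartilage markers tested, 0 were called, and their median log2 fold change was -0.28. Of the 43 members tested, 28 had a negative fold change, and only COL11A2 of these was called. The median was -0.55 over the members against 0 over all genes. Of the 10 FACITs, 9 were among the 28, and the FACIT median was -0.99.

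The wide spread of 36h ran along the differentiations. The summed TPM of 5 somitic mesoderm markers was 8.81, 131.5 and 631.2 in r1, r2 and r3 at 36h, the same order as that of COL13A1, and their part in its change was not tested. COL5A2, a chain of the thin fibrils of type V collagen, stood at 2.53, 4.43 and 22.49 TPM in that order and at 8.27 to 9.49 TPM at t0. COL1A2, the second chain of type I collagen, was at 52.12, 70.85 and 132.9 TPM at 36h and at 38.69 to 48.07 at t0. Neither was called. Without r2, or without r3, no collagen gene was called in this comparison. Without r1, COL9A2 and COL13A1 were called higher and COL9A1 lower, against 1.76% and 2.19% of all genes.

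From 36h to P5 the cultures gained RNA of COL3A1, COL6A3, COL12A1, COL5A2, COL2A1 and COL26A1. Of 43 members, 6 rose and 0 fell, against 3.78% higher and 4.54% lower among all genes. The largest changes were in COL3A1, the homotrimeric fibril collagen of loose connective tissue, COL6A3, the third chain of type VI filaments, and COL12A1, a FACIT of fibril surfaces. COL3A1 (chr2:188974320-189012746) was at 0.26, 0.24 and 0.87 TPM at 36h and at 103.3, 143.8 and 153.8 TPM at P5. It was nearly absent in all 3 cultures at 36h and abundant in all 3 at P5, with a log2 fold change of 8.42 (SE 1.25, adjusted p = 2.2e-05). COL6A3 (chr2:237324003-237414375) was at 0.79, 0.41 and 0.66 TPM at 36h and at 165, 227.7 and 300.8 TPM at P5. It had the highest mean level of all members at P5, with a log2 fold change of 8.34 (SE 1.54, adjusted p = 0.00023). COL12A1 (chr6:75084326-75206051) was at 0.44, 0.46 and 0.56 TPM at 36h and at 37.03, 164.8 and 83.87 TPM at P5. The fitted log2 fold change was 7.61 (SE 1.29, adjusted p = 9.2e-05), and the P5 values differed over 4 times between r1 and r2.

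The other 3 genes that rose had been present before. COL5A2 (chr2:189031896-189225312), the neighbour of COL3A1 on the opposite strand with 19149 bases between the genes, reached 74.15, 164.4 and 137.7 TPM at P5. The log2 fold change was 3.74 (SE 0.81, adjusted p = 0.0011). COL2A1, the main fibril collagen of cartilage and also a collagen of the notochord and early neuroepithelium (chr12:47972965-48004554), was at 20.88, 23.84 and 26.17 TPM at 36h and at 69.28, 201.4 and 228.5 TPM at P5. Its groups did not overlap, and the log2 fold change was 2.61 (SE 0.66, adjusted p = 0.0039). The 6 cartilage markers summed to 33.02 to 56.96 TPM at 36h and to 12.33 to 46.26 at P5, and their part was not tested. COL26A1 (chr7:101362820-101559024), an extracellular protein with short collagen domains, was at 33.7, 31.61 and 31.83 TPM at 36h and at 50.88, 124 and 163.1 TPM at P5. All 3 cultures were higher at P5, with a log2 fold change of 1.55 (SE 0.43, adjusted p = 0.0081), or 1.73 with an adjusted p of 0.025 in edgeR with no block, where it was not called. The summed markers of neural crest were at 27.63 to 75 TPM at 36h and at 148.2 to 436.4 TPM at P5, and those of smooth muscle at 38.8 to 78.34 and 322.9 to 372.3 TPM. Of these markers, 3 of the 8 crest genes and 1 of the 4 smooth muscle genes were called higher, with median log2 fold changes of 2.2 and 0.62. The part of either cell type in these changes was not tested.

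The moment of the gain was not the same in the 3 differentiations. COL3A1 was at 154.1 and 147.9 TPM in r2 and r3 at P1 but at 0.32 in r1, and it reached 30.39 TPM in r1 at P2. COL6A3 was at 199.8 and 236.7 TPM in r2 and r3 at P3 and at 1.81 in r1, which reached 24.89 TPM at P4 and 165 at P5. COL3A1 thus came before COL6A3 in every differentiation, and r1 was later than the others in both genes. COL5A2 had the same order at P1, with 2.76 TPM in r1 against 125.1 and 112.1 in r2 and r3. The library P1 r1 is the one that kept pluripotency markers (1219 TPM). Somitic mesoderm markers were at 7.57, 363.5 and 359.3 TPM in r1, r2 and r3 at P1 and at 304.8 TPM in r1 at P2. Crest markers were at 76.25, 254.3 and 306.6 TPM at P3. Their part in the timing was not tested. The type I chains had smaller fold changes that were not called. COL1A2 was at 102.9, 171.7 and 271.7 TPM at P5 with a log2 fold change of 1.01 (SE 0.67, adjusted p = 0.26), and COL1A1 at 26.69, 18.99 and 12.9 TPM with one of 0.3 (SE 0.64, adjusted p = 0.76). Without r2 none of the 6 genes was called, and without r3 only COL3A1 and COL5A2 were, while all 6 and no other member were called without r1, against 4.17% of all genes higher and 4.36% lower.

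**Figure D2:**
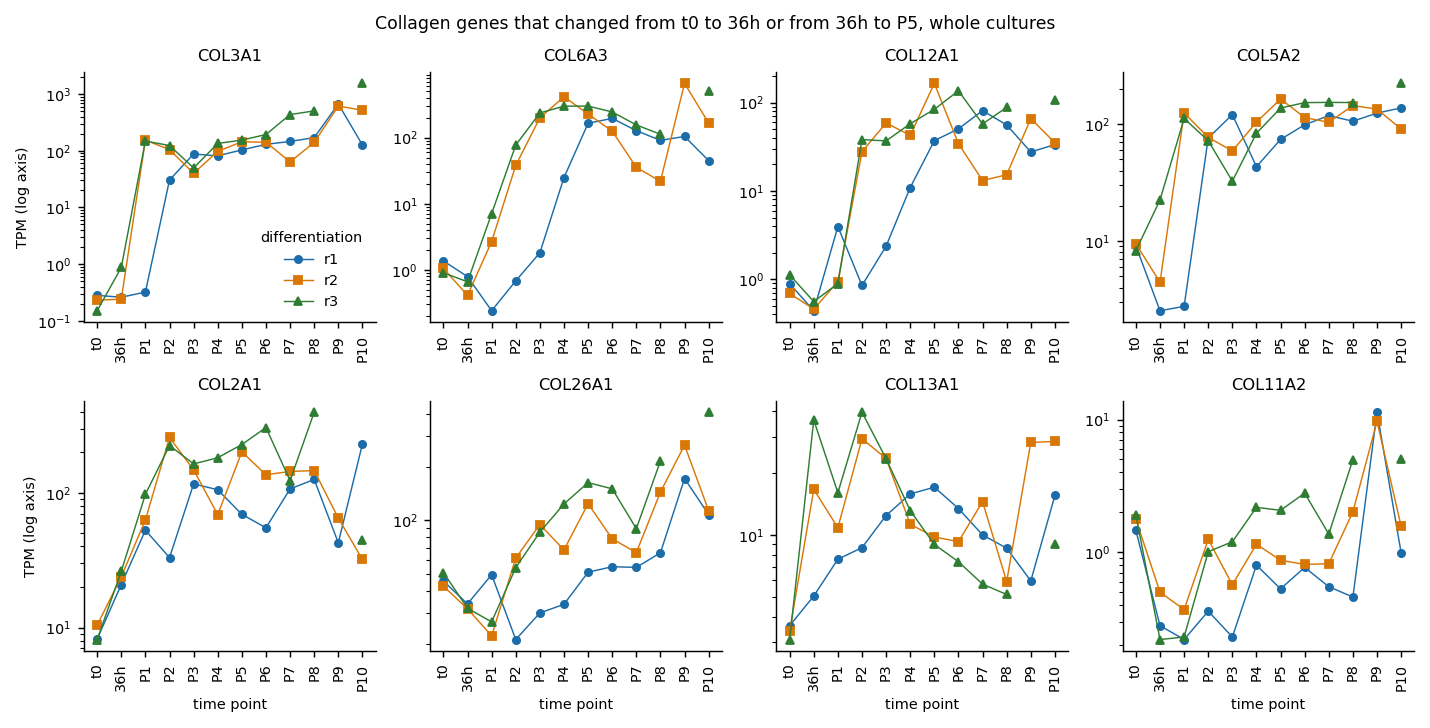
TPM on a log axis for the 8 collagen genes called between t0 and 36h or between 36h and P5, with 1 line for each differentiation and no value for r3 at P9. COL3A1 starts at 0.15 to 0.28 TPM and lies above 100 TPM at P5, and the r1 lines of COL3A1, COL6A3 and COL12A1 rise later than those of r2 and r3.

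Some genes of collagen biosynthesis and its surroundings changed in the same interval. Of a list of 44 such genes, all of them tested, 8 rose and 1 fell from 36h to P5, against 3.78% and 4.54% of all genes, and 35 were not called. Among the enzymes and carriers, PCOLCE, which enhances the removal of C-propeptides, had a log2 fold change of 3.49 (SE 0.8, adjusted p = 0.0018). DDR2, a receptor kinase for fibrillar collagen, had one of 3.74 (SE 0.9, adjusted p = 0.0027). NID1 and NID2, which link laminin to type IV networks, had log2 fold changes of 2.06 (SE 0.28, adjusted p = 8e-06) and 1.59 (SE 0.41, adjusted p = 0.0044). The others that rose were P4HA1 (prolyl hydroxylation), PLOD1 (lysyl hydroxylation), SEC23A (export from the endoplasmic reticulum) and BMP1 (propeptide removal), with log2 fold changes of 1.02, 1.01, 1.01 and 1.21. P3H2, a prolyl 3-hydroxylase, dropped by 2.46 on the log2 scale (SE 0.6, adjusted p = 0.0031). None of the 5 lysyl oxidase genes of crosslinking was called. From t0 to 36h no gene of this list was called.

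Between P5 and P8 no collagen gene was called in whole cultures, in a comparison with few calls of any kind (0.00459% of genes higher and 0.00459% lower). At an unadjusted p under 0.05 there were 14 of 43 members, against 13.3% of all genes, and 35 of 43 had a positive fold change with a median of 0.53 against 0 over all genes. Smooth muscle markers summed to 322.9 to 372.3 TPM at P5 and to 462.9 to 1593 at P8, and their part was not tested. DESeq2 called 2 members higher, COL9A3 and COL21A1, against 0.547% of all genes higher by that tool. COL9A3, a chain of the cartilage FACIT type IX, was at 6.56, 10.64 and 27.15 TPM at P5 and at 18.5, 76.56 and 181.3 TPM at P8. It was higher at P8 in each differentiation although the groups overlap, with a log2 fold change of 2.71 in edgeR (SE 0.64, adjusted p = 0.062) and 2.72 in DESeq2 (SE 0.6, adjusted p = 0.0016). Its partner chains were not called: COL9A1 was at 3.86 to 7.1 TPM at P5 and 5.31 to 13.41 at P8 (log2 fold change 0.93, SE 0.74), and COL9A2 at 7.91 to 13.13 and 8.07 to 15.14 (0.03, SE 0.39). The difference between the chains was not tested. Without r1, 1 member was called, COL6A6, which was higher, against 0.324% of all genes higher and 0.12% lower.

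The late passages P9 and P10 were compared together with P8. COL6A1, COL6A2 and the FACIT COL16A1 were called higher and COL18A1 lower. These were 3 and 1 members, against 0.772% and 0.473% of all genes. Of the 5 type VI genes 2 were called, and 4 had a positive fold change. COL6A1 and COL6A2, the first and second chains of type VI filaments, lie on the same strand of chromosome 21 with 93046 bases between them. COL6A2 was at 81.3, 128.1 and 295.4 TPM at P8, at 477.7 and 906.1 TPM at P9 (r1 and r2) and at 127.3, 924.7 and 1357 TPM at P10. Every later library but P10 r1 lay above every P8 library, and the log2 fold change was 2.3 (SE 0.48, adjusted p = 0.0053). COL6A1 was at 104.4, 166.2 and 307.8 TPM at P8, at 310.2 and 594 at P9 and at 164.8, 636.6 and 883.4 at P10. P10 r1 was again the only later library within the range of P8, and the log2 fold change was 1.54 (SE 0.3, adjusted p = 0.0034). COL16A1, a FACIT of small fibrils (chr1:31652247-31704319), was at 3.34, 7.26 and 10.95 TPM at P8, at 49.83 and 28.22 at P9 and at 3.23, 63.82 and 137.3 at P10. The log2 fold change of COL16A1 was 3.4 (SE 0.75, adjusted p = 0.0074). COL18A1 (chr21:45405137-45513720) was at 207.6, 243 and 148.2 TPM at P8, at 32.44 and 49.15 at P9 and at 168.3, 41.73 and 69.3 at P10. It dropped by 1.67 on the log2 scale (SE 0.26, adjusted p = 0.0012), and only P10 r1 reached the P8 range. With no replicate block COL18A1 alone was called, and the adjusted p in edgeR were 0.11 for COL6A1, 0.085 for COL6A2 and 0.054 for COL16A1.

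P10 r1 lay within the P8 range in COL6A1, COL6A2 and COL18A1 and just below it in COL16A1. The comparison was repeated without it. That library was singled out with its values known, so the calls without it depend on this choice and are given as a description. Then 10 members were called, 6 higher and 4 lower, against 2.25% and 2.39% of all genes in that fit. The 4 genes above remained, with log2 fold changes of 2.5 for COL6A2 (SE 0.44), 1.69 for COL6A1 (SE 0.27), 3.65 for COL16A1 (SE 0.62) and -2 for COL18A1 (SE 0.2). The genes added on the higher side were COL8A2, a short-chain collagen of corneal basement membrane, COL15A1, a multiplexin, and COL10A1, the collagen of hypertrophic cartilage. COL8A2 was at 0.56, 3.19 and 5.12 TPM at P8, at 10.7 and 15.56 at P9 and at 0.85, 19.86 and 65.42 at P10, with a log2 fold change of 3.31 (SE 0.71). COL10A1 was listed at 0, 0 and 0.33 TPM at P8, at 0.76 and 5.95 at P9 and at 0, 1.14 and 11.45 at P10, and 39 of the 47 libraries had 3 counts or fewer of it. COL15A1 stayed low, between 0.22 and 0.56 TPM at P8 and between 0.46 and 3.02 later.

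The genes added on the lower side were COL9A1, COL2A1 and COL4A6. COL9A1 was at 7.4, 5.31 and 13.41 TPM at P8, at 0.83 and 1.23 at P9 and at 11.75, 0.22 and 0.41 at P10, and it dropped by 4.12 on the log2 scale without P10 r1 (SE 0.37). COL2A1 was at 125.8, 146.4 and 397.1 TPM at P8, at 42.56 and 64.94 at P9 and at 230.7, 32.03 and 44.78 at P10, and it dropped by 2.15 (SE 0.42). COL4A6 was at 33.89, 33.62 and 25.85 TPM at P8, at 11.72 and 8.59 at P9 and at 35.38, 8.46 and 5.39 at P10, and it dropped by 1.88 (SE 0.19). In each of the 3 genes, P10 r1 lay within or above the P8 range and all other later libraries lay below it. Markers of the pre-neural epithelium moved with these genes, at 162 to 694.9 TPM at P8 and 5.24 to 16.73 in the later libraries other than P10 r1 (427.1), while those of neural crest were at 112.8 to 746.6 and 883.3 to 1054 (P10 r1 192.6). The 4 smooth muscle markers summed to 462.9 to 1593 TPM at P8 and to 21.7 to 163.3 in the same later libraries (P10 r1 487.9). With all libraries, 0 of the 8 crest markers were called higher and their median log2 fold change was -0.66, so the crest sum does not stand for each of its genes. The part of these cell types was not tested. In the biosynthesis list, DDR1, the collagen receptor kinase of epithelia, was called lower with all libraries (log2 fold change -1.89, SE 0.43, adjusted p = 0.0087) and 0 genes were called higher. Without P10 r1 it dropped by 2.69 (SE 0.24), and ADAMTS2 and ADAMTS14, which remove N-propeptides of fibrillar collagens, were called higher. With all of r2 or all of r3 left out, no collagen gene was called. Without r1, 7 were called higher and 4 lower, against 1.94% and 2.18% of all genes.

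**Figure D3:**
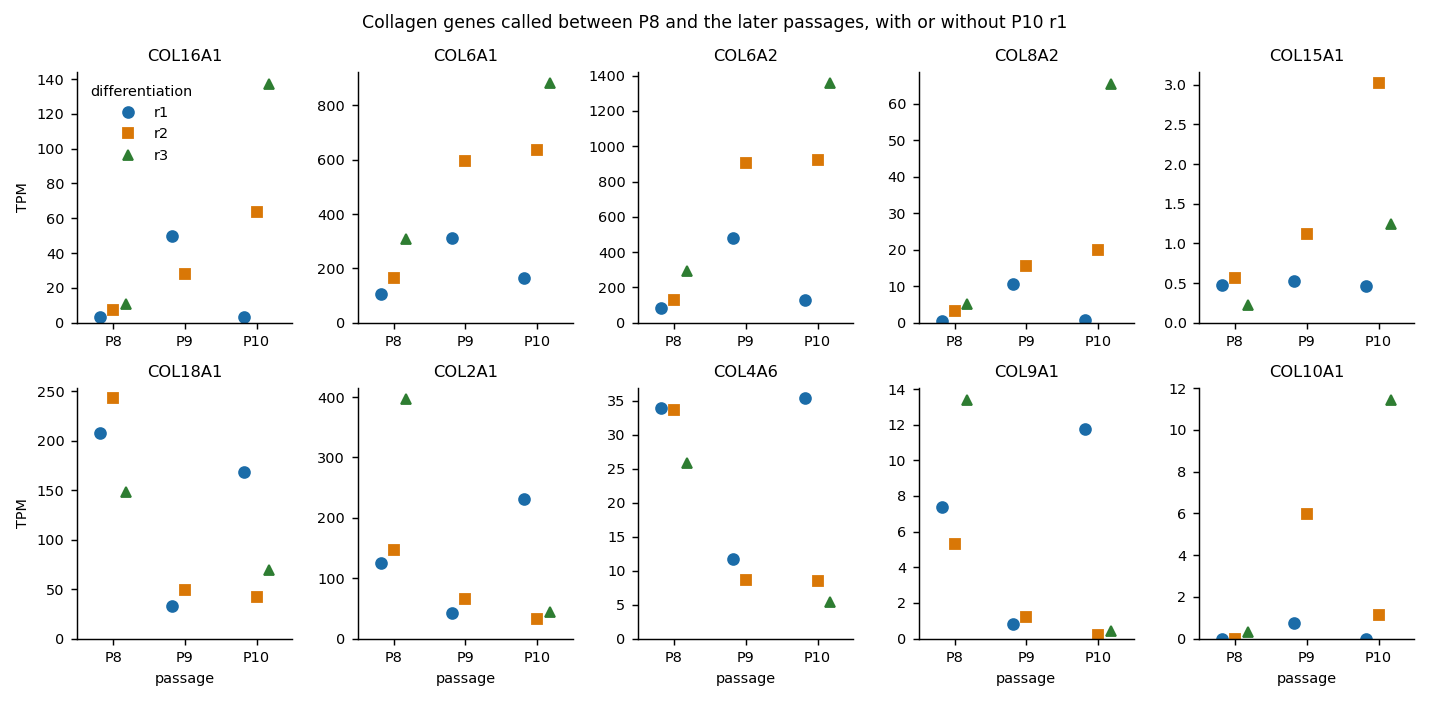
TPM in each library of P8, P9 and P10 for the 10 collagen genes called between P8 and the later passages when P10 r1 is left out, of which COL16A1, COL6A1, COL6A2 and COL18A1 were also called with it. Points are single libraries of differentiations r1 to r3, and the P10 r1 point lies near the P8 points in every panel, for example at 168.3 TPM in COL18A1 against 32.44 to 69.3 in the other later libraries.

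The comparison of the fractions asks how the collagens of the mesenchymal, crest-enriched cells differ from those of the epithelial, PNP-enriched cells of the same culture. The summed collagen level was higher in MES in all 6 pairs, with 3481 ± 639.9 against 1534 ± 571.2 TPM at P5 (n = 3 each) and 4246 ± 833.6 against 2188 ± 868.4 TPM at P8 (n = 3 each). The fractions did not overlap at either passage (exact permutation p = 0.1 at both, the smallest possible). This test takes the 6 libraries of a passage as independent, although MES and EPI came from the same 3 cultures. Markers of other cell types differed between the fractions too. Smooth muscle markers summed to 528.9 to 959.2 TPM in MES and 139.7 to 210.6 in EPI at P5, and at P8 they were higher in MES of each culture (2052, 1845 and 247 against 490.8, 1643 and 209.2 TPM in r1, r2 and r3). Cartilage markers summed to 27.23, 37.34 and 81.75 TPM in MES and to 5.67, 13.07 and 30.88 in EPI at P5. At P8 they overlapped, with 25.23, 37.52 and 29.76 TPM in MES and 6.47, 42.34 and 25.17 in EPI, and r2 was lower in MES. Endothelial markers (0.85 to 1.51 TPM in EPI and 1.79 to 5.34 in MES at P5) and pluripotency markers (16.9 to 34.25 and 32.63 to 55.47) were low and were higher in MES in all 6 pairs. The median log2 fold change of the 4 pluripotency markers at P5 was -0.58, so their sum does not stand for each gene. The part of these markers in the collagen differences was not tested. Of the 31 members that averaged 100 or more normalized counts over all libraries, 25 were higher in MES in 3 of 3 cultures at P5, against 32.5% of all genes with such a mean, and 3 lower, against 32.4%. At P8, 19 were higher in 3 of 3 cultures, against 21.7%, and 3 lower, against 27.2%. The groups did not overlap for 16 higher and 2 lower members at P5 (18.3% and 17.2% of genes) and for 7 higher and 1 lower at P8 (4.34% and 4.72%).

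No collagen gene was called between the fractions in the edgeR fit of the 12 libraries, in which 0% of the 18886 genes were called higher and 0% lower at P5 as well as at P8. The block of that fit is the differentiation number, which P5 and P8 share. It thus does not pair MES with EPI of the same culture within a passage, although such fractions deviated together, and the lack of calls depends on this model. In this fit 41 of the 44 members were tested (COL4A3, COL10A1 and COL20A1 were not). At an unadjusted p under 0.05 there were 23 members at P5, against 25.9% of all genes, and 20 at P8, against 12%. DESeq2 with the same block called 8 members higher at P5, against 1.87% of genes, and 5 higher at P8, against 0.27%. A fit with a block for each culture within its passage, which was chosen after seeing the data, called 0.688% of genes higher and 0.927% lower at P5 and 0% in either direction at P8. COL11A1 was its only collagen gene, with a log2 fold change of 1.4 (SE 0.21, adjusted p = 0.0091 in edgeR). COL11A1, a fibrillar chain that nucleates cartilage and other thin fibrils (chr1:102876467-103108872), was at 18.94, 28.16 and 27.77 TPM in EPI and at 61.05, 69.47 and 57.08 TPM in MES at P5.

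COL12A1, COL6A3 and COL1A2 differed most in r1, the culture with the lowest crest markers in EPI. COL12A1 was at 8.29, 127.8 and 74.73 TPM in EPI of P5 and at 146.9, 571.3 and 212.1 TPM in MES, with log2 ratios within a culture of 4.15, 2.2 and 1.51 in r1, r2 and r3. The edgeR fit gave it 2.27 (SE 0.96, adjusted p = 0.18). COL6A3 was at 37.5, 194.6 and 252.5 TPM in EPI of P5 and at 649.3, 744.9 and 628.1 TPM in MES. The MES levels were alike in the 3 cultures and the EPI levels were not, so that the log2 ratio within a culture was 4.07, 1.96 and 1.36 in r1, r2 and r3. The edgeR log2 fold change was 2.36 (SE 0.82, adjusted p = 0.12). COL1A2 was at 24.02, 102.3 and 173.1 TPM in EPI of P5 and at 336.4, 449.1 and 477.5 TPM in MES, with ratios in the same order of 3.94, 2.26 and 1.55. The fitted log2 fold change was 2.5 (SE 0.64, adjusted p = 0.049). COL3A1 was at 62.38, 100.4 and 126.2 TPM in EPI and at 209.3, 340.7 and 258.9 TPM in MES, with a log2 fold change of 1.55 (SE 0.39, adjusted p = 0.048 in edgeR and 0.00062 in DESeq2). Crest markers in EPI had the order of the EPI levels of COL6A3, COL1A2 and COL3A1, though not of COL12A1, at 67.97, 148.6 and 263.1 TPM in r1, r2 and r3, and their part was not tested. COL26A1 was at 20.3, 71.48 and 110.1 TPM in EPI and at 140.1, 239 and 225.2 in MES (log2 fold change 1.86, SE 0.37, adjusted p = 0.025 in edgeR and 6.1e-06 in DESeq2).

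COL6A1 and COL6A2 had the same direction as COL6A3, while COL6A5 was higher in MES in 1 of 3 cultures and COL6A6 in 2 of 3 at each passage. At P5, COL6A1 was at 58.92, 121.9 and 130.5 TPM in EPI and at 165.5, 255.1 and 217.2 TPM in MES. COL6A2 was at 21.86, 98.68 and 120.3 TPM in EPI and at 154.1, 297.1 and 226.8 TPM in MES. Neither overlapped between fractions, and DESeq2 called both, with a log2 fold change of 1.15 for COL6A1 (SE 0.3, adjusted p = 0.0021), while the adjusted p in edgeR were 0.054 for COL6A1 and 0.064 for COL6A2. At P8 the same genes stood at 87.81, 156.7 and 326.7 (COL6A1) and 45.94, 117.8 and 352.5 TPM (COL6A2) in EPI. In MES of P8, COL6A1 was at 289.6, 262.2 and 537.4 TPM and COL6A2 at 343.6, 282.4 and 685.3 TPM. At P8 the fractions overlapped for both, because EPI of r3 lay above MES of r1 and r2.

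Several other members showed smaller or opposite differences, although COL4A1 was higher in MES in 3 of 3 cultures at both passages, with log2 ratios of 0.66, 0.28 and 0.11 at P5 and 1.4, 0.62 and 0.5 at P8. COL18A1 was at 118.6, 130.4 and 125 TPM in EPI and 165.1, 142.6 and 126.8 in MES of P5, a log2 fold change of 0.21 (SE 0.29, adjusted p = 0.71). COL4A2, a chain of every basement membrane, was at 149.2, 151.4 and 142.7 TPM in EPI and at 167.1, 142.6 and 128.9 in MES of P5, with a log2 fold change of 0.03 (SE 0.09, adjusted p = 0.88). At P8 its values were 175.4, 181.5 and 149.9 TPM in EPI and 294.5, 255.2 and 216.6 TPM in MES, which do not overlap, with a log2 fold change of 0.53 (SE 0.09, adjusted p = 0.23). The difference between passages in this contrast was 0.5 (SE 0.13, adjusted p = 0.82), which was not called. COL2A1 was at 49.04, 189.5 and 220.4 TPM in EPI and at 112.7, 240.4 and 316.4 in MES of P5, and at 117.5, 168.6 and 287.8 in EPI and 141.4, 159.9 and 135.9 in MES of P8. It was higher in MES of each culture at P5 and in 1 of 3 at P8. COL5A2 was at 57.62, 146.5 and 135.5 TPM in EPI and 114.9, 243.7 and 193.8 in MES of P5, and higher in MES of 3 of 3 cultures at both passages. COL9A1 and COL13A1 were lower in MES of 3 of 3 cultures at both passages, with log2 ratios of -0.34 to -1.04 for COL9A1 and -0.33 to -0.73 for COL13A1. In all, 18 of the 31 members were higher in MES in 3 of 3 cultures at both passages, against 15.3% of all genes with such a mean. No member was called in the interaction of passage and fraction (0% of genes called higher and 0% lower), with 6 members at an unadjusted p under 0.05 against 6.11% of all genes, and DESeq2 called 0 members there too.

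**Figure D4:**
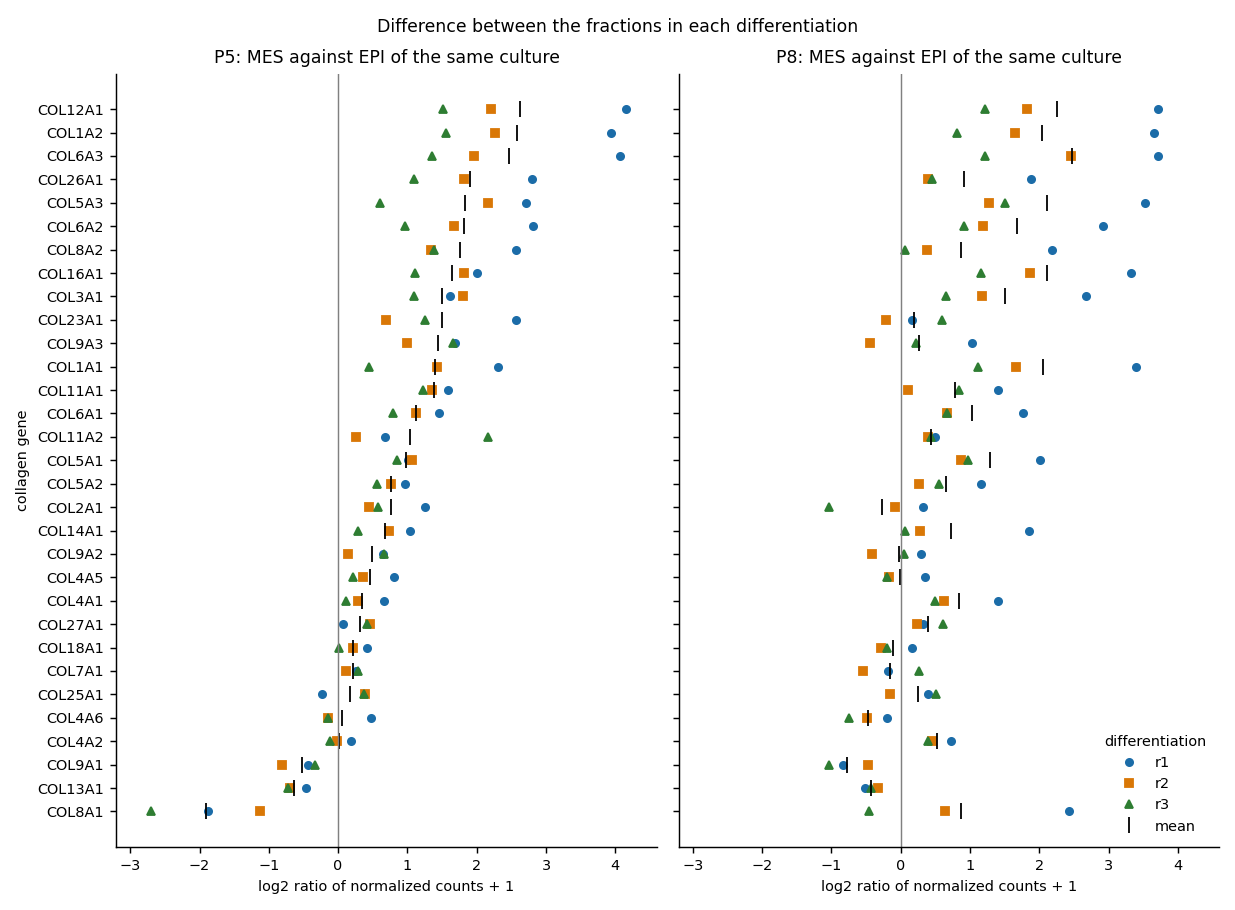
Log2 ratio of normalized counts + 1 in MES to those in EPI of the same culture, at P5 (left) and P8 (right), for the 31 collagen genes that averaged 100 or more normalized counts. Each point is 1 differentiation and the bar is their mean, and at P5 the 3 points of 25 genes lie to the right of 0, from COL12A1 at the top (1.51 to 4.15) downwards.

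At P8 DESeq2 called 5 members higher in MES, the fibrillar chains COL1A1, COL3A1, COL5A1 and COL5A3 and the FACIT COL16A1. COL5A3, a low-abundance type V chain (chr19:9959561-10010471), was at 1.52, 4.99 and 2.6 TPM in EPI of P8 and at 17.64, 12.78 and 7.61 in MES, with a log2 fold change of 2.06 in DESeq2 (SE 0.5, adjusted p = 0.0074) and of 2.07 in edgeR (SE 0.54, adjusted p = 0.28). COL1A1, the chain that pairs with COL1A2 in type I collagen, was at 31.68, 45.18 and 89.65 TPM in EPI of P8 and at 312.7, 151.5 and 192.6 TPM in MES. In COL1A1, as in COL5A3, no EPI library reached the lowest MES library.

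The fractions also differed between passages, in comparisons that share their libraries with those above. In MES, 3 members rose from P5 to P8 and 0 fell, against 0.582% and 0.116% of all genes. COL5A3 went from 1.12, 1.85 and 0.2 TPM at P5 to the P8 values given above, with a log2 fold change of 3.85 (SE 0.57, adjusted p = 0.0097). COL16A1 went from 1.95, 3.89 and 6.09 TPM to 14.22, 19.82 and 37.38 TPM, with a log2 fold change of 3 (SE 0.39, adjusted p = 0.0069). COL5A1, the most abundant type V chain beside COL5A2 (chr9:134641774-134844843), went from 23.89, 36.88 and 33.15 TPM to 86.04, 78.16 and 124.7 TPM, with a log2 fold change of 1.6 (SE 0.23, adjusted p = 0.0089). None of the 3 genes overlapped between passages. In EPI the same genes had log2 fold changes of 3.86, 2.61 and 1.32 (SE 0.6, 0.39 and 0.23), with adjusted p of 0.016, 0.014 and 0.019 in edgeR, and none of them was called in the interaction. LOXL4, a lysyl oxidase of collagen crosslinking, was the only gene of the biosynthesis list called in MES between P5 and P8 (log2 fold change 3.44, SE 0.46, adjusted p = 0.0076). In EPI, 1 member rose and 0 fell, against 0.228% and 0.0318% of all genes. It was COL9A3 (chr20:62816244-62841159), at 4.57, 6.86 and 10.06 TPM at P5 and 18.1, 70.23 and 128.2 TPM at P8, with a log2 fold change of 3.08 (SE 0.39, adjusted p = 0.0093). With no replicate block the log2 fold changes in MES were 3.59, 2.97 and 1.59 for COL5A3, COL16A1 and COL5A1, and none was called. Their adjusted p in edgeR were 0.054, 0.096 and 0.059. COL9A3 in EPI then had a log2 fold change of 3.36 and an adjusted p of 0.087, and it was not called. Leaving out r2, or r3, removed all calls from both comparisons. Without r1, 4 members were called higher and 0 lower in each, against 0.871% and 0.292% of all genes in MES and 1.45% and 0.552% in EPI. Between P5 and P8 the crest markers of EPI went from 67.97, 148.6 and 263.1 to 89.09, 337.4 and 711.6 TPM in r1, r2 and r3, and the pre-neural markers from 720.8, 583.7 and 464.2 to 644.8, 278.8 and 185.3 TPM. The smooth muscle markers went from 139.7, 208.3 and 210.6 to 490.8, 1643 and 209.2 TPM in EPI and from 959.2, 797.8 and 528.9 to 2052, 1845 and 247 TPM in MES. In MES the crest markers went from 440.9, 454.9 and 606.3 to 265.7, 409.3 and 1052 TPM. The pre-neural markers of MES went from 255.1, 239.1 and 87.36 to 446, 181.9 and 51.77 TPM. Endothelial markers were low and rose in each culture, from 0.85, 1.51 and 1.07 to 1.58, 11.44 and 1.86 TPM in EPI. In MES the endothelial markers went from 5.34, 3.65 and 1.79 to 5.79, 13.02 and 3.88 TPM. The part of these cell types in the changes from P5 to P8 was not tested. SOX9, a crest marker and a regulator of cartilage collagens, was the only gene of the marker lists called in EPI (log2 fold change 2.05, SE 0.2, adjusted p = 0.0071).

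In the biosynthesis list no gene was called between the fractions in the edgeR fit of the 12 libraries. At P5, 23 of its 44 genes had an unadjusted p under 0.05, against 25.9% of all genes, and its median log2 fold change was 0.44 against 0 over all genes. At P8, 13 had such a p, against 12% of all genes, with a median of 0.24.

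Chains that are built into the same molecule need not be transcribed at one ratio, and the ratio of their TPM is described here without a test. COL4A1 and COL4A2, which assemble in the common type IV protomer, start 127 bases apart on the stretch shown above. Their TPM ratio was 1.09 ± 0.0186 at t0 (SD, n = 3), 0.982 ± 0.0393 at 36h and 0.887 ± 0.0446 at P1. It was 0.557 ± 0.0398 at P4 and 0.558 ± 0.0157 at P5, with no overlap between t0 and P5. The change was larger in COL4A2, which was at 55.62, 57.52 and 52.44 TPM at t0 and at 171.2, 140.9 and 132.4 TPM at P5, while COL4A1 was at 61.72, 61.69 and 57.28 TPM and then at 92.38, 79.89 and 75.03 TPM. In the fractions the ratio was higher in MES, 0.696 ± 0.0211 against 0.55 ± 0.0157 in EPI at P5, and it did not overlap. At P8 it was 0.981, 0.87 and 0.642 in MES and 0.622, 0.766 and 0.617 in EPI of r1, r2 and r3, which overlap. The GENCODE models of COL4A1 and COL4A2 overlap by 1422 bases at their starts, and the strand setting of the counting is not given in the sources used here, so reads in that overlap cannot be assigned with certainty.

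The ratio also changed in the pair COL4A5 and COL4A6. COL4A5 was at 33.12, 33.5 and 36.99 TPM at t0 and 84.56, 110.7 and 88.78 at P8, and COL4A6 at 32.29, 29.17 and 33 TPM and then 33.89, 33.62 and 25.85. The partners were thus alike at t0 and COL4A5 was the higher one at P8 in each differentiation. In P9 and P10 other than P10 r1, COL4A5 was at 56.37 to 72.4 TPM and COL4A6 at 5.39 to 11.72 TPM. COL4A3 and COL4A4 were near the floor: COL4A4 had a mean of 0.18 TPM at t0, its highest, and COL4A3 never more than 0.22 TPM. The COL6A1 to COL6A2 ratio was 1.37 ± 0.0387 at t0 and 2.26 ± 0.199 at P1, and 0.649 and 0.656 in the P9 libraries. At P10 it was 1.29, 0.688 and 0.651 in r1, r2 and r3. The COL1A1 to COL1A2 ratio ranged from 0.0428 to 1.22 over the 47 libraries, with a mean of 0.647 at t0, 0.139 at P5 and 0.654 at P10, and it was at or above 1 only in r1 at P1 and P2.

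**Figure D5:**
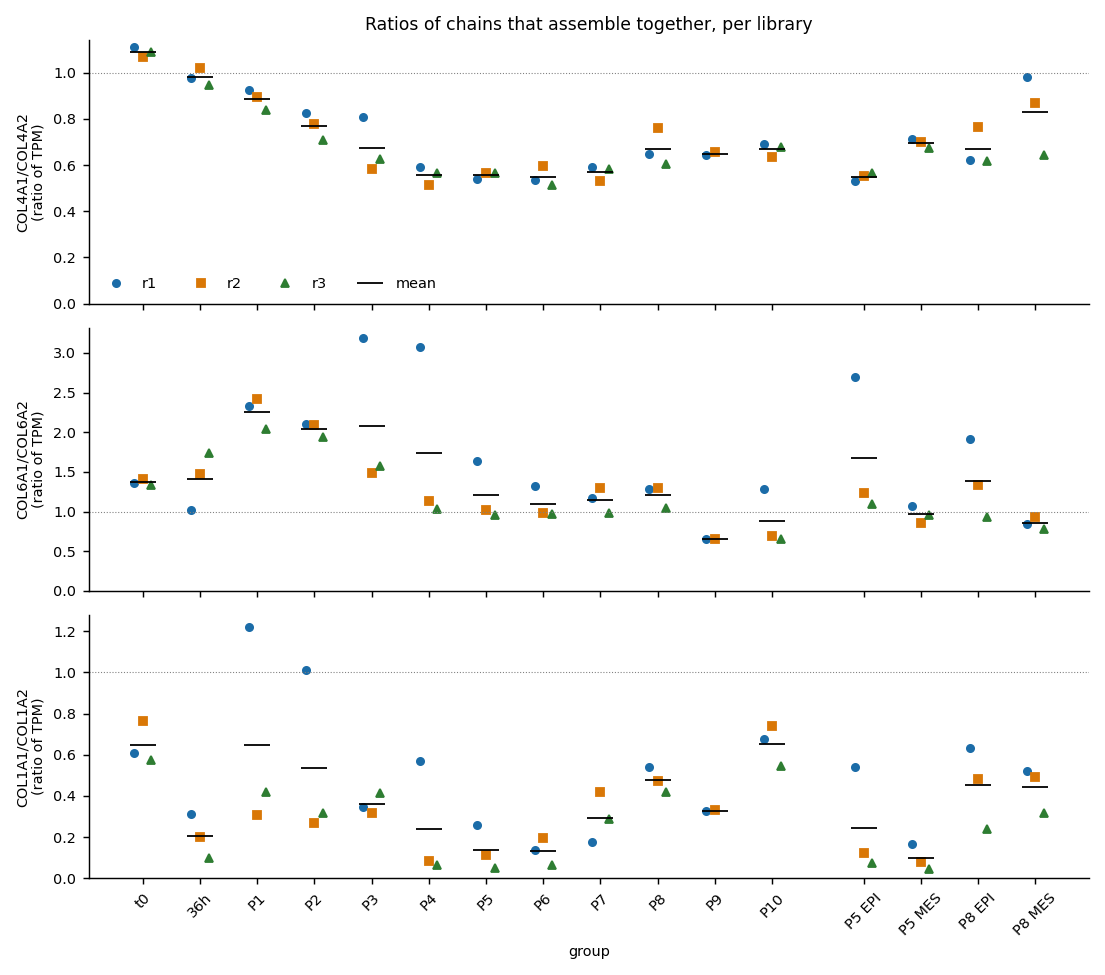
Ratios of TPM between chains of type IV, type VI and type I collagen in each library, with points for the differentiations, a bar for the mean and a dotted line at 1. The COL4A1/COL4A2 points lie at 1.07 to 1.11 at t0 and at 0.539 to 0.567 at P5.

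The remaining members were low or showed no call. COL14A1, a FACIT of differentiated connective tissue, was at 14.39 to 18.67 TPM at t0 and 0.35 to 0.94 at P10. COL21A1, COL6A5, COL6A6 and COL19A1 had at most 0.28 TPM at P5 and larger means at P8, with at most 5.91 TPM in any P8 library and adjusted p of 0.037 to 0.36 in edgeR, none of them called. COL8A1, a short-chain collagen of vessels and cornea, went from 0.02 to 0.04 TPM at 36h to 0.64 to 2.67 at P5, at least 39.7-fold higher when 36h is set to 3 counts per library. Its adjusted p was 0.00016, and it was not called because its mean of 65.3 normalized counts was below the minimum. COL7A1 (anchoring fibrils of skin), COL27A1 (a fibrillar chain of cartilage) and COL25A1 and COL23A1 (transmembrane chains) were not called in any comparison. COL7A1 lay between 4.09 and 17.89 TPM and COL27A1 between 7.42 and 29.96 TPM over all libraries. COL17A1, the transmembrane collagen of hemidesmosomes, peaked in 1 library, P2 r1, at 8.9 TPM against 0.18 and 0.04 in r2 and r3. COL20A1, COL4A4, COL24A1, COL28A1 and COL22A1 did not exceed 3.82 TPM in any library.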

How the data were processed

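RNA of 47 libraries was measured by polyA RNA-seq. Per the labels, the authors trimmed reads with cutadapt, aligned them with STAR 2.5.2b to GRCh38 and made the deposited expected counts and TPM (transcripts per 1000000 transcripts) per gene with RSEM 1.3.0. Strand and annotation are not given in the sources used here. Of 58051 genes, 57447 matched GENCODE 29. Expected counts (9.3% not whole) were rounded and tested with edgeR 4.0.16 (filterByExpr, TMM, quasi-likelihood, Benjamini-Hochberg) under R 4.3.3, with the differentiation number as a block, in 1 fit of the 35 whole cultures and 1 of the 12 fractions. DESeq2 1.42.0 was an alternative. Normalized counts are rounded counts divided by TMM size factors over the 47 libraries. Collagen totals were compared by exact permutation. Scripts were tested on simulated data. Members and lists were chosen with earlier results of these data known. Values per library were to be given for the 10 members with the highest mean TPM and up to 6 called members per direction and comparison, and biosynthesis genes for up to 4 called per direction. Other genes were picked after their values were seen. Same-numbered fractions of 1 culture deviated together, with a mean correlation of 0.65 at P5 and 0.78 at P8. In whole cultures it was -0.01 for t0 and 36h, 0.11 for 36h and P5, 0.31 for P5 and P8 and 0.24 for P8 and P10, and not every pair was over 0.1. The edgeR p-values rest on the spread that is left after the block for the 3 differentiations, over all libraries of a fit. The permutation tests used no block. All of them concern 1 line.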

Additional observations from a re-analysis of the deposited data

How the results depend on the processing

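Of 165 refitted log2 fold changes for the 16 gene results tested, 105 kept their direction and their side of the threshold, 60 kept the direction only, and 0 reversed. The number of collagen genes called was less stable, and the cause was not tested. For 36h against t0 (2 called) it was 1 with no replicate block, with DESeq2 size factors, with no filter on low counts and with at least 10 counts in every library, and 0 with the compared libraries alone. For P5 against 36h (6) it stayed at 5 to 7 in every setting that kept all replicates, with 5 under no replicate block. For P8 against P5 (0) DESeq2 gave 2. For P9 and P10 against P8 (4) the number was 9 at 5% FDR, 1 with no replicate block, 8 in DESeq2, 7 with all 47 libraries, 0 with the compared libraries alone and 10 without P10 r1. For MES against EPI (0 at both passages) it was 6 at 5% FDR, 8 in DESeq2 and 1 with the replicate block within each passage at P5, and 5 in DESeq2 at P8. The block within each passage, and the collagen total without P10 r1, were added after seeing the data. For MES at P8 against P5 (3) it was 7 at 5% FDR, 5 with no minimum mean, 7 in DESeq2, and 0 with no replicate block, all 47 libraries or the compared libraries alone. For EPI (1) it was 7 at 5% FDR, 7 in DESeq2, 4 with no filter, and 0 with no replicate block, all 47 libraries or the compared libraries alone. Leaving out 1 differentiation gave 0 to 3 calls for 36h against t0, 0 to 6 for P5 against 36h, 0 to 1 for P8 against P5, 0 to 11 for P9 and P10 against P8, 0 to 4 for MES and 0 to 4 for EPI at P8 against P5, and 0 for the fractions. Per 1000000 expected counts, long transcripts weigh more than in TPM. The collagen total was then 1825 ± 112.3 at t0, 5555 ± 1344 at P5 and 11160 ± 8359 at P10 (SD, n = 3 each). COL4A3 had 3 counts or fewer in 44 of 47 libraries, where a difference was not detectable at this depth. COL10A1 had 3 counts or fewer in 39 of 47 libraries, and it was called higher at P9 and P10 without P10 r1.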
